A study of Mus musculus with 2 samples.

Results

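The genes described here encode subunits of the NuRD, BAF and Polycomb complexes and of other chromatin remodelers, with the related HP1, ING and ARID proteins. They were chosen by name alone, from a list of 19 symbols and a set of family name patterns such as Smarc, Chd, Cbx, Pcgf and Ing. This rule found 74 genes, each on a single row, among the 14261 rows deposited by the authors. RNA-seq was made from 2 suspension cultures of TRE-ESC, a line of mouse embryonic stem (ES) cells, in dishes of low adsorption. Both were grown in N2B27 medium with the kinase inhibitors called 2i and the cytokine LIF, which keep such cells naive and pluripotent, and both carry the label 36 h. The culture called dox below was given doxycycline, which switches on tetracycline-controlled transgenes, and the culture called no dox had no agent. By its title, the series is about c-Jun and the resistance of ES cells to the differentiation it induces. The sources used here do not give the strain of the cells, the number of clones behind the line or the promoter of any transgene they carry. No culture of cells without a transgene was analysed here, so doxycycline itself and the transgene cannot be told apart. There was 1 library per group, so no test was possible, no value has a spread between cultures, and every comparison below describes these libraries.

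Chromatin complexes set how tightly DNA is wrapped and which genes can be read. Remodelers are built around an ATPase that slides or evicts nucleosomes, the spools of histone protein on which DNA is wound. The BAF complex opens chromatin in this way, while NuRD joins a remodeling ATPase to histone deacetylases and is known for tuning pluripotency genes in ES cells. Polycomb complexes keep developmental genes silent, with PRC2 placing a methyl mark on histone H3 and PRC1 placing ubiquitin on histone H2A. Many subunits come as families of related genes of which a complex takes a single member, so the members present decide which form of the complex is built.

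The values were whole numbers on a normalized count scale with quartiles of 14, 62 and 184 in both libraries, and the depth behind them is unknown. In a log2 ratio, a pseudocount of 10 was first added to the value with dox and to the value without dox, and the sum with dox was divided by that without. Folds given below were taken from these log2 ratios, so they lie nearer to 1 than the quotient of the printed values. Summaries used genes whose larger value was 50 or more, called the floor below, which 8547 genes reached. Jun, which checks the labels, stood at 3821 with dox and 55 without dox. All 10 ES cell markers reached the floor, with values summing to 11689 with dox and 19744 without dox, and 9 of the 10 had smaller values with dox. The naive factor gene Nanog stood at 623 with dox and 2508 without dox, and Pou5f1, which encodes Oct4 and was the one marker with a larger value, at 3572 with dox and 3230 without dox. Among 10 markers of feeder fibroblasts only the fibronectin gene Fn1 reached the floor, at 5339 with dox and 6785 without dox. Dcn and Lum were listed at 0 in both libraries, and 3 of the 10 had smaller values with dox, Fn1, Postn and Pdgfrb. Under the floor, Col3a1 stood at 39 with dox and 2 without dox, and Col1a2 at 19 with dox and 8 without dox. The rows of the other marker lists summed to 39 with dox and 24 without dox for 5 primitive endoderm genes and to 585 with dox and 224 without dox for 7 trophectoderm genes. They summed to 350 with dox and 414 without dox for 5 neural genes, and to 229 with dox and 28 without dox for 4 blood genes. Of the neural genes Nes stood at 151 with dox and 55 without dox, and Tubb3 at 127 with dox and 302 without dox. In all, 2 of these 5 had smaller values with dox. The trophectoderm gene Krt7 alone stood at 374 with dox and 0 without dox, and 2 of the 7 had smaller values with dox. Most of the blood sum with dox came from Csf1r, at 111 with dox and 1 without dox, and Cd68, at 96 with dox and 19 without dox. Itgam alone of the 4 blood genes had a smaller value with dox, at 3 with dox and 8 without dox. The part of cells of these other types in the results was not tested. In bulk RNA, fewer cells of a type and less RNA per cell cannot be told apart.

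Most subunits differed little between the libraries with and without dox. The floor left 66 members and excluded 8. Of the 66, 0 were at least 2-fold higher with dox, against 9.23% of all genes at or above the floor, and 1 was at least 2-fold lower, against 5.49%. At 1.5-fold, 2 members were higher, Mbd2 and Smarcc2, where 16.7% of all genes were. At the same threshold 9 were lower, or 13.6% of the members, which is near the 17.7% of all genes. The other 55 members, 83.3%, were within 1.5-fold, against 65.6% of all genes. The median log2 ratio of the members was −0.11, against −0.08 over all genes, and its quartiles were −0.41 and 0.24, against −0.44 and 0.34 over all genes. Across all genes the log2 ratio went with transcript length, at a Spearman rho of 0.27 over genes that are not independent of each other, and members had a median transcript length of 4550 nt, against 3566 nt over all genes. With the trend on length removed the median of the members was −0.22 and that of all genes −0.07. Among the 66 members 4 reached the floor in a single library, Mbd2 and Ing2 in the one with dox and Smarcd3 and Pcgf1 in the one without, and a floor on the larger value admits such genes because they differ.

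**Figure D1:**
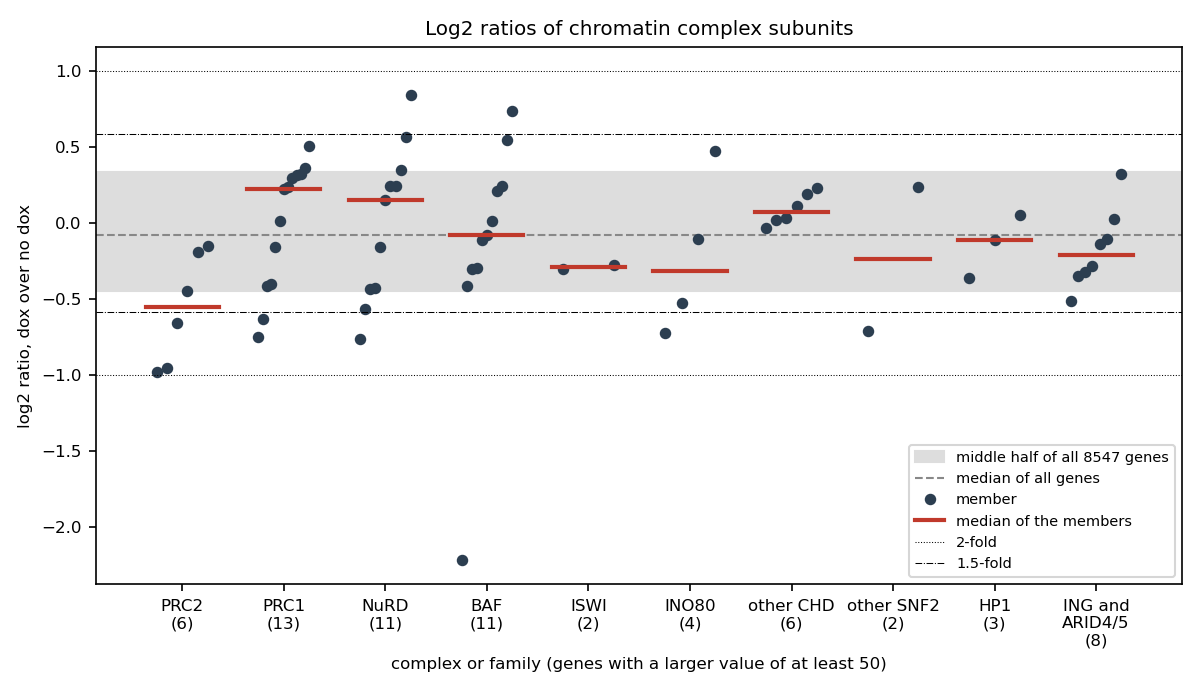
Log2 ratio (dox over no dox) of the 66 members that reached the floor, by complex or family, with the number of members under each name. Points are genes, red bars are medians of the members, and the grey band spans the quartiles of all 8547 genes, −0.44 to 0.34. All 6 PRC2 points lie below 0, the PRC1, NuRD and BAF points lie on both sides, and Smarcd3 stands alone at −2.22. The medians of PRC1, at 0.23, and of the other CHD genes, at 0.07, became −0.01 and −0.21 with the trend on transcript length removed.

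The 6 genes counted under PRC2 all had smaller values with dox, as did 54.9% of all genes at or above the floor, and their median log2 ratio of −0.55 was the lowest of the 10 groups. A floor of 250 left a single gene in the group of other SNF2 remodelers, which was then lower, at −0.71 against −0.66 for PRC2. Eed, whose product reads the methyl mark and activates the enzyme, stood at 235 with dox and 474 without dox, a log2 ratio of −0.98. Ezh2, the methyltransferase that is the main catalytic subunit in dividing cells, stood at 405 with dox and 794 without dox, a log2 ratio of −0.95. Ezh1, the related enzyme known for a larger part in cells that no longer divide, stood at 119 with dox and 133 without dox, a log2 ratio of −0.15. Suz12, the scaffold that binds both enzyme and nucleosome, stood at 1497 with dox and 1705 without dox, a log2 ratio of −0.19. Eed and Ezh2 were thus lower by near 2-fold and Suz12 by less than 1.2-fold. The histone-binding core subunits that PRC2 shares with NuRD are counted under NuRD, and they stood on both sides of 0, with log2 ratios of −0.42 for Rbbp4 and 0.57 for Rbbp7.

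Accessory subunits bring PRC2 to its sites, and those among the members, Mtf2 and Jarid2, lay between these values. Of those described below as partners, Phf19 and Aebp2 had larger values with dox and Epop a smaller one. Mtf2, a Polycomb-like protein that binds CpG-rich DNA, stood at 678 with dox and 1074 without dox, 1.58-fold lower. Its log2 ratio of −0.66 was −0.58, just inside 1.5-fold, once all genes were centred on a median of 0. Jarid2, a DNA-binding cofactor prominent in ES cells, stood at 450 with dox and 617 without dox, 1.36-fold lower. With the trend on transcript length removed the log2 ratio of Jarid2 was −0.71, beside −0.68 for Mtf2, −0.84 for Eed and −0.88 for Ezh2, and the PRC2 median was −0.69. Under each of the 7 alternatives run, the PRC2 median lay between −0.69 and −0.47. Ranked from high to low log2 ratio among the 8547 genes, Eed was at 8059 and Ezh2 at 8015.

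Eed spans 89954654 to 89980983 on chromosome 7 and Ezh2 spans 47530139 to 47595341 on chromosome 6, both on the minus strand of GRCm38, the assembly called mm10 in the submitters' processing notes. Their promoters, 250 bases before to 50 after the start in RefSeq (GRCm38.p6), are shown because these PRC2 genes had the lowest ratios. Both strands were searched for the AP-1 motif TGANTCA, the element that c-Jun binds with its partners, and for the E2F-type motif TTTNNCGC, known from cell cycle genes. The motifs were chosen after the values were seen. Capitals mark the E2F-type match, and every base without a match is in lower case.
Eed, chr7:89980927-89981226, minus strand: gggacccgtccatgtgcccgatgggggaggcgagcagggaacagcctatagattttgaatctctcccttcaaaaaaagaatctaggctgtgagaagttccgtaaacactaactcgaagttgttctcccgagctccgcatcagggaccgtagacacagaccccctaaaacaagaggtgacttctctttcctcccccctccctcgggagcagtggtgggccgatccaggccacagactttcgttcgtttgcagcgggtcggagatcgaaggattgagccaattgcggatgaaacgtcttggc
Ezh2, chr6:47594981-47595280, minus strand: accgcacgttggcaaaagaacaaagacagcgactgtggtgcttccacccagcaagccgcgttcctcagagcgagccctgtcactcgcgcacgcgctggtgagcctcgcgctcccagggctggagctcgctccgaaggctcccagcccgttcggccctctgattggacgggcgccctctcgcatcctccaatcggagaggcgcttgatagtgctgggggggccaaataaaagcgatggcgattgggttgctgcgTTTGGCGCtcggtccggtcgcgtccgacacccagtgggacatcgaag
The Ezh2 window held 1 E2F-type match, starting at base 254, and the Eed window held 0. Over the 8 windows of the 6 PRC2 genes 2 held this motif, those of Ezh2 and Suz12, against 5.17% of the 32851 windows in the table. The AP-1 motif was in 0 of these 8 windows and in 7.81% of all windows. Of the 74 members 59 had windows, 80 in all, of which 10 held the E2F-type motif and 4 the AP-1 motif. Among the 10 windows of members at least 1.5-fold lower, 1 held the E2F-type motif and 0 the AP-1 motif. A match of letters is a description of the sequence and not a site.

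PRC1 had no common direction. Of its 17 genes 13 reached the floor, 8 with a log2 ratio above 0 and 5 below, and the median of 0.23 became −0.01 with the trend on transcript length removed. Rnf2, the main ubiquitin ligase of PRC1 in ES cells, stood at 379 with dox and 301 without dox, a log2 ratio of 0.32. Ring1, its related ligase, was under the floor at 16 with dox and 37 without dox. Rybp, which defines the variant form of the complex, stood at 851 with dox and 682 without dox.

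PCGF proteins pair with the ligase and define the PRC1 subtypes, and their genes split. Pcgf6, the subunit of the subtype known for silencing germline genes in ES cells, stood at 124 with dox and 215 without dox, a log2 ratio of −0.75. Pcgf2, a subunit of the canonical form, stood at 199 with dox and 266 without dox, 1.32-fold lower. Bmi1, the PCGF gene that can take the same place, stood at 84 with dox and 56 without dox, 1.42-fold higher. These neighbours in the canonical form therefore had opposite signs. Pcgf3 stood at 220 with dox and 169 without dox, and its close relative Pcgf5 at 46 with dox and 17 without dox, 2.07-fold higher but just under the floor. Pcgf1, of the subtype that KDM2B brings to CpG islands, stood at 38 with dox and 54 without dox.

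CBX proteins read the PRC2 mark for canonical PRC1, and PHC proteins join such complexes into clusters. Cbx7, the CBX gene best known in ES cells, stood at 590 with dox and 477 without dox, a log2 ratio of 0.30. Cbx6 stood at 246 with dox and 207 without dox, while Cbx2, known from differentiating cells, stood at 94 with dox and 106 without dox. Cbx8 was under the floor, at 6 with dox and 15 without dox. Phc1, the PHC gene associated with ES cells, was the one with the lower value, at 358 with dox and 559 without dox, 1.55-fold lower. Its log2 ratio of −0.63 was inside 1.5-fold once all genes were centred on a median of 0, at −0.55, and with a pseudocount of 50, at −0.58. Phc2 stood at 99 with dox and 98 without dox and Phc3 at 79 with dox and 66 without dox.

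**Figure D2:**
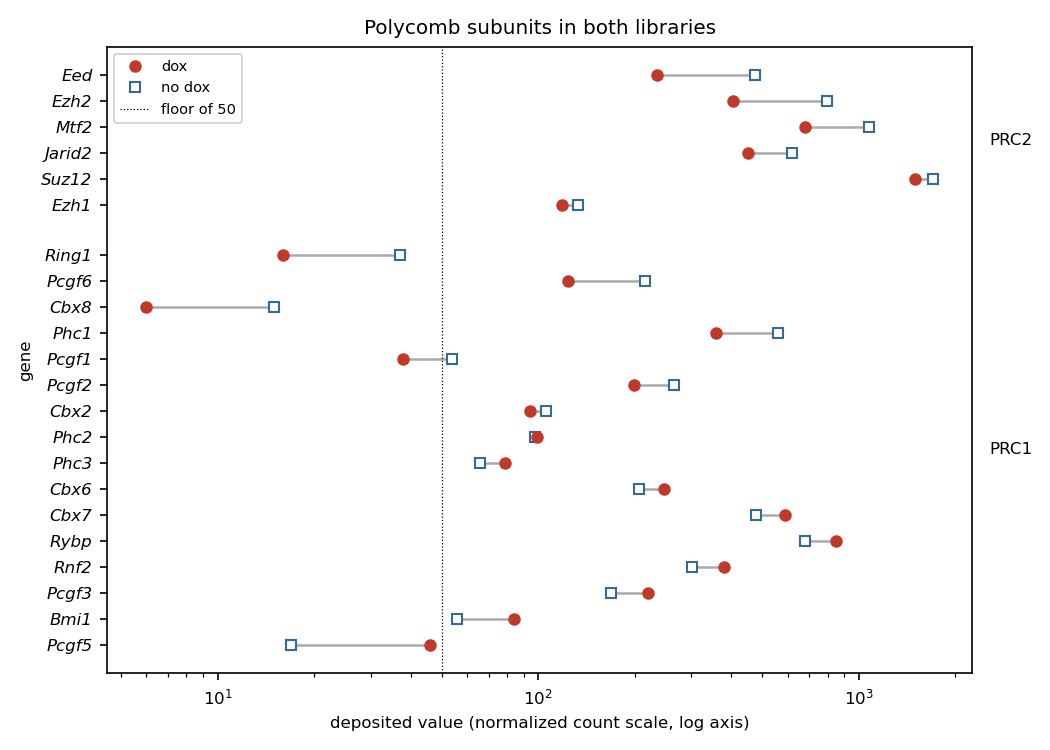
Deposited values of the PRC2 and PRC1 genes named in the text with dox (filled circles) and without dox (open squares), on a log axis in normalized count units, sorted within each complex by log2 ratio. The dotted line is the floor of 50. In PRC2 each circle lies left of its square, whereas PRC1 runs from Ring1, at 16 with dox and 37 without dox, to Pcgf5, at 46 with dox and 17 without dox.

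NuRD genes lay on both sides of 0 as well, with 6 of the 11 genes above the floor having a log2 ratio above 0 and 5 below, and a median of 0.16. This median was 0.05 with the trend on transcript length removed and 0.04 with a floor of 250. Chd4, the main ATPase of NuRD, stood at 1703 with dox and 1334 without dox, a log2 ratio of 0.35. Chd3, the alternative ATPase, stood at 131 with dox and 229 without dox, 1.70-fold lower. Chd5, known mostly from brain and testis, was under the floor at 6 with dox and 5 without dox. So the ATPase genes of this complex differed in sign.

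MBD proteins give NuRD its link to DNA, and a complex holds either MBD2 or MBD3. Mbd2, which binds methylated DNA, stood at 69 with dox and 34 without dox, a log2 ratio of 0.84, the highest of the 66. Mbd3, the form known for its part in leaving the naive state, stood at 419 with dox and 468 without dox, a log2 ratio of −0.16. The ratio of Mbd2 rests on low values and was 0.50 with a pseudocount of 50.

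The MTA scaffolds and histone-binding subunits of NuRD were split as well. Mta1 stood at 244 with dox and 365 without dox, 1.48-fold lower, and Mta2 at 531 with dox and 719 without dox, 1.35-fold lower. Mta3 stood at 292 with dox and 245 without dox, 1.18-fold higher. Rbbp4, a WD40 protein that NuRD shares with PRC2, stood at 1654 with dox and 2224 without dox, a log2 ratio of −0.42. Rbbp7, its near relative in the same complexes, stood at 2218 with dox and 1491 without dox, a log2 ratio of 0.57. Their log2 ratios lay on opposite sides of 0. The linker genes Gatad2a, at 566 with dox and 476 without dox, and Gatad2b, at 78 with dox and 69 without dox, were both within 1.2-fold.

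BAF genes had a median log2 ratio of −0.08, against −0.08 over all genes, with 5 of 11 above 0 and 6 below. With the trend on transcript length removed the BAF median was −0.31, against −0.07 over all genes. Smarca4, which encodes the ATPase BRG1 used in ES cells, stood at 884 with dox and 743 without dox, a log2 ratio of 0.25. Smarca2, which encodes the alternative ATPase BRM, was just under the floor at 49 with dox and 24 without dox. Smarcc1, which encodes the BAF155 scaffold typical of ES cells, stood at 928 with dox and 1139 without dox, a log2 ratio of −0.29. Smarcc2, which encodes the BAF170 scaffold of differentiated cells, stood at 177 with dox and 102 without dox, a log2 ratio of 0.74, or 0.58 and just inside 1.5-fold with a pseudocount of 50. Smarca2, under the floor, and Smarcc2 therefore had larger values with dox, while Smarca4 and Smarcc1 differed by less than 1.3-fold, in opposite directions. Other alternative BAF subunits had no common direction. Their log2 ratios were −2.22 for Smarcd3, −0.11 for Smarcd2, 0.02 for Arid1b and 0.55 for Arid2.

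Among the 66 members at the floor, Smarcd3 alone was past 2-fold, at 7 with dox and 69 without dox, a log2 ratio of −2.22. It encodes BAF60C, a BAF subunit best known from heart and skeletal muscle, and spans 24590818 to 24624411 on the minus strand of chromosome 5. Its ratio depends on the pseudocount, at −3.13 with 1 and −1.06 with 50. With a pseudocount of 1 Eed was also past 2-fold lower, at −1.01, and Mbd2 reached 2-fold higher, at 1. Smarcd1, which encodes the related BAF60A, stood at 347 with dox and 465 without dox, and Smarcd2 at 211 with dox and 229 without dox. The core genes Smarcb1, at 286 with dox and 355 without dox, and Smarce1, at 368 with dox and 316 without dox, were within 1.3-fold.

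ARID subunits separate the forms of BAF. Arid2, the subunit of the PBAF form, stood at 307 with dox and 207 without dox, a log2 ratio of 0.55 that became 0.28 with the trend on transcript length removed. Arid1a stood at 590 with dox and 623 without dox and Arid1b at 84 with dox and 83 without dox. These alternative subunits of canonical BAF differed by less than 1.1-fold.

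**Figure D3:**
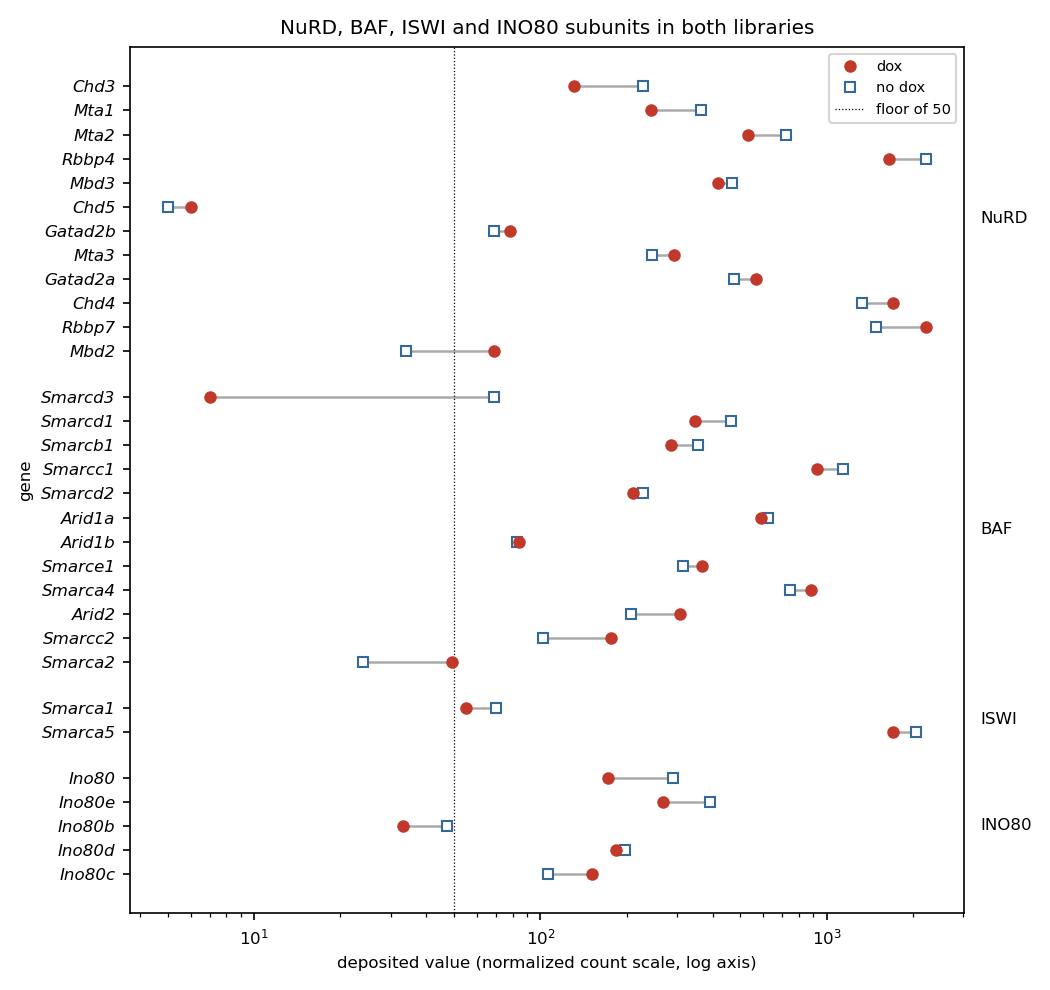
Deposited values of NuRD, BAF, ISWI and INO80 genes with dox (filled circles) and without dox (open squares), on a log axis in normalized count units, sorted within each complex by log2 ratio. The dotted line is the floor of 50. Smarcd3 has the longest line, at 7 with dox and 69 without dox, and most pairs of symbols lie close together.

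Among the other remodelers the ATPase gene Ino80, which moves nucleosomes and exchanges histone variants, stood at 172 with dox and 290 without dox, a log2 ratio of −0.72. Its complex had no single direction, since Ino80e stood at 268 with dox and 390 without dox and Ino80c at 151 with dox and 106 without dox. Ino80d stood at 184 with dox and 198 without dox, and Ino80b was under the floor at 33 with dox and 47 without dox. Smarcad1, a remodeler known for keeping silent chromatin through replication, stood at 342 with dox and 566 without dox, 1.64-fold lower. Smarcal1, which reanneals DNA at stalled forks, stood at 122 with dox and 102 without dox. The ISWI ATPases, which space nucleosomes evenly, were both slightly lower, Smarca5 at 1706 with dox and 2062 without dox and Smarca1 at 55 with dox and 70 without dox.

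The 6 CHD genes outside NuRD lay in a narrow range, with log2 ratios from −0.03 to 0.23. Chd1, which is known for keeping ES cell chromatin open, stood at 323 with dox and 318 without dox. Chd2 stood at 366 with dox and 310 without dox, and Chd7, known from neural crest development, at 108 with dox and 99 without dox. Chd8, a regulator linked to Wnt and p53 targets, stood at 396 with dox and 404 without dox. Their transcripts are long, with a median of 9651 nt, and the group median of 0.07 became −0.21 with the trend on length removed. Chd6, at 180 with dox and 156 without dox, and Chd9, at 200 with dox and 195 without dox, complete the group.

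HP1 proteins bind the methyl mark of constitutive heterochromatin, and their genes differed by less than 1.3-fold. Cbx5, which encodes HP1 alpha, stood at 1276 with dox and 1226 without dox, Cbx1, for HP1 beta, at 253 with dox and 274 without dox, and Cbx3, for HP1 gamma, at 687 with dox and 884 without dox. Cbx3 has 8 pseudogenes named after it in GENCODE M21, and Smarce1, Smarca5 and Rybp have 1 each, so reads could have been divided between copies for these 4 genes. Pseudogenes with other kinds of names were not counted, so the same could hold for other members.

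ING proteins bind a methyl mark of active promoters and direct acetylases or deacetylases there, and 0 of the 8 ING and ARID4 or ARID5 genes at or above the floor passed 1.5-fold, where 65.6% of all genes were within it. The lowest log2 ratio, −0.51, was that of Arid5b, a DNA-binding partner of a histone demethylase, at 172 with dox and 250 without dox, and it was −0.76, past 1.5-fold, with the trend on transcript length removed. Ing1, of the SIN3 deacetylase complex, stood at 181 with dox and 229 without dox, whereas its relative Ing2 in the same complex stood at 54 with dox and 41 without dox. Ing5, of an acetylase complex, stood at 155 with dox and 200 without dox, Ing4 at 95 with dox and 103 without dox, and Ing3 at 84 with dox and 82 without dox. The SIN3-associated Arid4a stood at 65 with dox and 81 without dox, and Arid4b at 176 with dox and 194 without dox. Arid5a was under the floor at 19 with dox and 10 without dox.

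Related subunits were next compared in 31 pairs by the difference of their log2 ratios, which needs no comparison of levels between genes but still carries the trend of the ratios on transcript length. The pairs share genes and are not independent. In 25 pairs both genes reached the floor. In 11 of these the ratios differed by at least 1.5-fold, and in 12 the signs were opposite. Over all genes 44.1% of log2 ratios were above 0 and 54.9% below, so opposite signs are common between any genes, and these counts say nothing particular to related subunits. Smarcd1 minus Smarcd3 was 1.80, and 0.69 with a pseudocount of 50, while Chd4 minus Chd3 was 1.11, and 0.97 with a pseudocount of 50. Smarcc1 minus Smarcc2 was −1.03 and Rbbp4 minus Rbbp7 −0.99, and Mbd3 and Mbd2 stood about as far apart, with log2 ratios of −0.16 and 0.84. The pairs of Smarcd3 and Mbd2 rest on genes that reached the floor in a single library, and with a pseudocount of 50 the difference of Mbd3 minus Mbd2 was −0.65. Bmi1 minus Pcgf2 was 0.91, Phc1 minus Phc3 −0.86, and Ezh2 minus Ezh1 −0.81. With the trend on transcript length removed, Phc1 minus Phc3 was −0.57, inside 1.5-fold, and Cbx1 minus Cbx5 went to 0.22, against −0.17 as deposited. By contrast Smarca5 minus Smarca1 was 0.03, Gatad2a minus Gatad2b 0.09 and Arid1a minus Arid1b −0.09, so the genes of these families had like ratios.

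**Figure D4:**
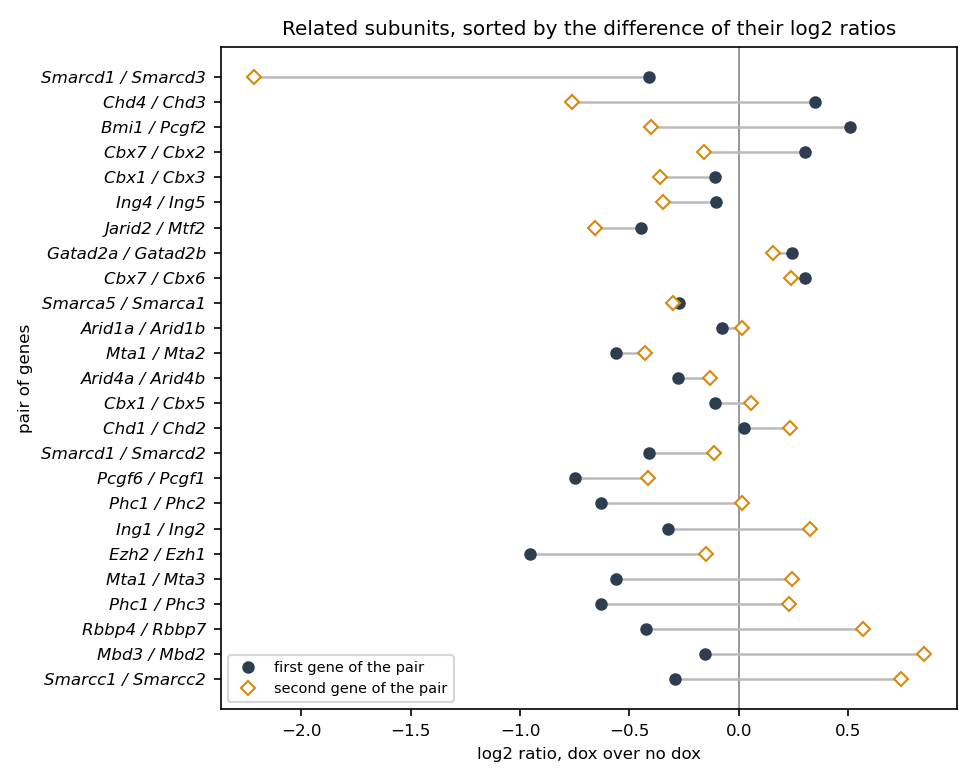
Log2 ratios (dox over no dox) of both genes in each of the 25 pairs at or above the floor, sorted by the first minus the second. Filled circles are the first gene of a pair and open diamonds the second. The Smarcd1 and Smarcd3 pair at the top is 1.80 apart and the Smarcc1 and Smarcc2 pair at the bottom −1.03, while Smarca5 and Smarca1 nearly coincide.

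Other known subunits of the same complexes, with genes related to them or binding them, likewise differed little for the most part. They were listed by what they are known for. Of 64 such genes with a row 57 reached the floor, and 46 of these, 80.7%, were within 1.5-fold, against 65.6% of all genes. At 1.5-fold 3 were higher with dox and 8 lower, 5.26% and 14.0%, against 16.7% and 17.7% of all genes. The share lower was thus near that of all genes. At 2-fold 2 were higher and 2 lower, 3.51% each, against 9.23% and 5.49% of all genes. The median log2 ratio of the 57 was −0.09, against −0.08 over all genes. Before the trend on transcript length was removed, the medians of Polycomb partners and members had opposite signs. The 4 PRC2 partners at the floor had a median of 0.29, 3 of them above 0, against −0.55 for the PRC2 members. Of these 3, Phf19 reached the floor only in the library with dox, so a floor on the larger value fixed its sign. With the trend on transcript length removed the medians of PRC2 partners and members were 0.16 and −0.69. The 11 PRC1 partners had a median of −0.14, 8 of them below 0, against 0.23 for the PRC1 members. With the trend on transcript length removed these PRC1 medians were −0.46 and −0.01, both below 0. Among NuRD partners, the deacetylase gene Hdac2 stood at 423 with dox and 753 without dox, 1.76-fold lower, and Sall4, a pluripotency factor that binds NuRD, at 287 with dox and 590 without dox. Sall4 is also counted among the ES cell markers. For BAF, Phf10, a PBAF subunit gene, stood at 207 with dox and 102 without dox, and Bicral, of the noncanonical form, at 74 with dox and 226 without dox. The partners of ISWI held Baz1a, which encodes the ACF1 subunit and stood at 136 with dox and 33 without dox, 3.40-fold higher, and Cecr2, at 145 with dox and 253 without dox.

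Partners of Polycomb included Phf19, a Polycomb-like gene related to Mtf2, which stood at 65 with dox and was listed at 0 without dox. Epop, a PRC2 cofactor of ES cells, stood at 409 with dox and 651 without dox, 1.58-fold lower, and Aebp2, which marks the alternative form with Jarid2, at 665 with dox and 475 without dox. Phf19, like the ISWI partner Baz1a, reached the floor only in the library with dox. L3mbtl2, a partner of Pcgf6 in its subtype, stood at 293 with dox and 533 without dox, 1.79-fold lower. Ruvbl1, a helicase of INO80, stood at 251 with dox and 402 without dox, and Sap30, of the SIN3 complex, at 109 with dox and 208 without dox.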

How the data were processed

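RNA-seq libraries were made from total RNA with an Illumina TruSeq kit, per the labels' protocols, and the tools named for the reads are bcl2fastq, Bowtie2 and RSEM, per the submitters' processing notes, which name mm10. The sources used here give no version, annotation or normalization. The deposited values were taken as a score, normalized on a count scale and rounded by the authors, because both libraries had the same quartiles and the same maximum, unlike raw counts. No count model was used, and 0 columns of sample values were left unused.

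The log2 ratio used a pseudocount of 10, a floor of 50 on the larger value and thresholds of 2-fold and 1.5-fold. With 1 library per group no p-value, SD or interval was computed. Symbols of all 74 members matched GENCODE M21 (GRCm38), which gave coordinates and the longest transcript. The length trend was removed with lowess (fraction 0.3) over 8472 genes. Members at or above the floor were named with their values, and so were members under it, partner genes past 1.5-fold, Jun and markers; Aebp2 was added after its values were seen, and 1 member is not reported here by name. Members, lists and pairs were chosen with earlier results of these data known. Alternatives were other pseudocounts, other floors, centring and the length trend. Steps were tested on simulated data. Python 3.11.15, pandas 2.3.3, numpy 2.4.6, statsmodels 0.14.6 and matplotlib 3.10.9 were used.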

Additional observations from a re-analysis of the deposited data

How the results depend on the processing

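The count of members at least 2-fold higher, 0 as reported, was 1 without a floor, with the length trend removed and with a pseudocount of 1. The count at least 2-fold lower, 1 as reported, was 2 with a pseudocount of 1, and 0 with a floor of 250 and with a floor of 50 on the mean of both values, an alternative chosen after seeing the data, which both leave out Smarcd3. The count at least 1.5-fold higher, 2 as reported, was 0 with a pseudocount of 50 and with a floor of 250, 4 without a floor and 5 with the median of all genes set to 0. The count at least 1.5-fold lower, 9 as reported, stayed between 6 and 12. With a floor of 250, which fewer members reach, the medians of INO80, the other SNF2 genes and the ING and ARID genes were −0.62, −0.71 and −0.51, and 2 pairs were at least 1.5-fold apart. The median of the other CHD genes was −0.21 with the length trend removed. All 11 members past 1.5-fold kept their sign under the 7 alternatives where they could be computed, and 7 of them stayed past 1.5-fold throughout. A median was taken as moved when it differed by more than 0.25. The unknown depth of the libraries limits what can be said of low values. No paired analysis was possible because there was 1 library per group and no test.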
